A study of Mus musculus with 20 samples.

Results

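The progestin and adiponectin receptor family was followed through 8 of its members, Mmd, Mmd2, Adipor1, Adipor2, Paqr3, Paqr4, Paqr7 and Paqr9, taken by gene name from the arrays. They have 15 probes among 41174 probe names. Of the 8 genes, 7 gave a level that entered the fit, among 15240 genes in all, and Mmd2 did not. Mmd headed the choice because its transcript was lower in muscle with the vector. The Scriptaid comparisons and the interaction draw on the same legs, so its values are a description throughout, with no test, whereas the other members were taken by family name.

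The tissue was EDL (extensor digitorum longus), a hindlimb muscle of mostly fast fibres. It was taken from 10 C57Bl6 mice, all male and 8 weeks old when the vectors were injected. The right leg received recombinant adeno-associated virus of serotype 6 (rAAV6) with D832N HDAC4 and D861N HDAC5, mutants of class IIa histone deacetylases that act as dominant negatives (dnHDAC4/5). The left leg of the same animal received empty rAAV6, so an effect of side cannot be told apart from one of the vector. After 4 weeks, 5 animals were given intraperitoneal Scriptaid, a hydroxamate inhibitor of histone deacetylases, and the other 5 vehicle with 5% DMSO. This gave 4 groups of 5 one-colour arrays, called HS (dnHDAC4/5 and Scriptaid), HV (dnHDAC4/5 and vehicle), ES (empty rAAV6 and Scriptaid) and EV (empty rAAV6 and vehicle), and HS 2 stands for replicate 2 of HS. All legs carried a virus, so no group is an uninjected muscle, and the labels give neither the Scriptaid dose nor the promoter of the vectors. The sample entries list 2.5e+10 vector genomes of each dnHDAC4/5 vector and hold no dose for the empty vector. They also call the intraperitoneal injections a cross-over without saying what was crossed, and each animal is labelled with 1 of the injections. The replicate number is also the slide, which held 1 array of each group, always at the same place for a group, so an effect of place cannot be told apart from one of group.

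Proteins of this family cross the membrane 7 times. Adipor1 and Adipor2 bind adiponectin, a hormone from fat cells, and act through ceramide breakdown, AMP-activated protein kinase and PPARα, which in muscle favours fatty acid oxidation and glucose uptake. Paqr7 and Paqr9 belong to the membrane progestin receptors. Paqr3, Mmd and Mmd2 are Golgi proteins linked to Raf and Ras signalling, and Mmd was named for its appearance when monocytes mature into macrophages.

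Every level below is a log2 processed intensity minus the 75th percentile of its array, so 0 is that percentile, and levels of different probes are not compared with each other. Calls were made where limma's p, adjusted over all genes, was under 0.05. On the scanner's intensity scale the 75th percentile ranged from 248.4 to 608.1 across arrays, with 51.7% to 61.3% of an array's spots detected well above background. Spots near the border read low more often on HS arrays (4.32% to 7.14% of border spots, against 0.0386% to 1.54% on the others), and a border zone was left out. Of 61 genes called for HS against ES, 44 still lay in the 10 right-hand columns, as did 65 of 82 for HS against HV. Those columns held 1335 of the 15240 genes tested. Every kept probe of the family lay at least 12 columns and 11 rows inside the border. All 10 muscle fibre markers on the array were above background on all 20 arrays. Fewer cells of a type and less RNA per cell cannot be told apart in such tissue RNA. Hdac4 differed by 0.30 ± 0.23 (SE) and Hdac5 by -0.01 ± 0.17 between HS and ES, and the probes need not detect the vectors' transcripts.

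Mmd was read by 2 probes, and these did not show the same thing. The probe of higher mean, A_52_P518808, stands for the gene, and the file assigns it to the Ensembl transcript ENSMUST00000134929. The other, A_51_P431470, is assigned to the RefSeq transcript NM_026178. The files put both on the plus strand of chromosome 11, the first at 90112402 to 90112461 and the second at 90139503 to 90139562, with 27041 bases between them. The build behind these positions is not given in the sources used here, and whether they fall in an exon, an intron or a UTR was not looked up. RefSeq gives the gene a length of 29298 bases (GRCm38.p6), so A_52_P518808 lies toward the 5′ end and A_51_P431470 toward the 3′ end. The first 30 of the 60 bases of each probe, 5′ to 3′, are shown because the probes read different stretches and gave different values.
A_52_P518808: gaccagtagctatattctgcaaaattaccc
A_51_P431470: ctgtctgtctaggaacaagctgtcagacta

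With probe A_52_P518808, Mmd was lower in dnHDAC4/5 legs than in the empty-vector legs of the same animals, in 10 of 10 animals. In the Scriptaid animals its level was 0.78, 0.66, 0.67, 0.41 and 1.04 in HS legs, against 1.83, 1.89, 1.20, 1.47 and 1.90 in ES legs. The highest HS leg stood below the lowest ES leg. In the vehicle animals it was 1.01, 0.98, 1.22, 1.29 and 1.60 in HV legs, against 1.42, 1.5, 1.5, 2.10 and 1.67 in EV legs. These groups overlapped, since HV 5 stood above EV 1, EV 2 and EV 3, yet within every animal the dnHDAC4/5 leg was the lower one.

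The differences between legs of an animal were -1.05, -1.23, -0.52, -1.05 and -0.85 with Scriptaid and -0.41, -0.52, -0.29, -0.81 and -0.07 with vehicle. The fitted difference was -0.94 ± 0.17 (SE, n = 5 each) for HS minus ES, or 0.521 of the ES level. It was -0.42 ± 0.17 for HV minus EV, or 0.748 of the EV level, and -0.68 ± 0.12 averaged over both. Over all genes tested, 0.853% had HS below ES without overlap and 0.925% were lower in all 10 animals. Mmd was chosen on this pattern, so nothing is read from these shares. The value in vehicle animals depended on the background correction: with normexp it was -0.09, and -0.02 relative to the median gene, against -0.80 in Scriptaid animals.

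With probe A_51_P431470, Mmd showed no such pattern. Its level was -1.12, -0.31, -0.13, -0.69 and 0.19 in HS legs, against -0.60, 0.37, -0.16, -0.15 and -1.17 in ES legs. In vehicle animals it was -0.38, -0.52, 0.19, -0.17 and 0.45 in HV legs, against 0.01, -0.27, 0.18, 0.31 and 0.33 in EV legs. Both pairs of groups overlapped, and the dnHDAC4/5 leg was the lower one in 6 of 10 animals. The fitted differences were -0.07 ± 0.27 for HS minus ES, -0.20 ± 0.27 for HV minus EV and -0.13 ± 0.19 averaged over both (SE). Averaging the probes gave Mmd a difference of -0.50 for HS minus ES. Both probes were well above background on all 20 arrays, and across the arrays they correlated at r = 0.34. The difference between the probes was not tested.

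**Figure D1:**
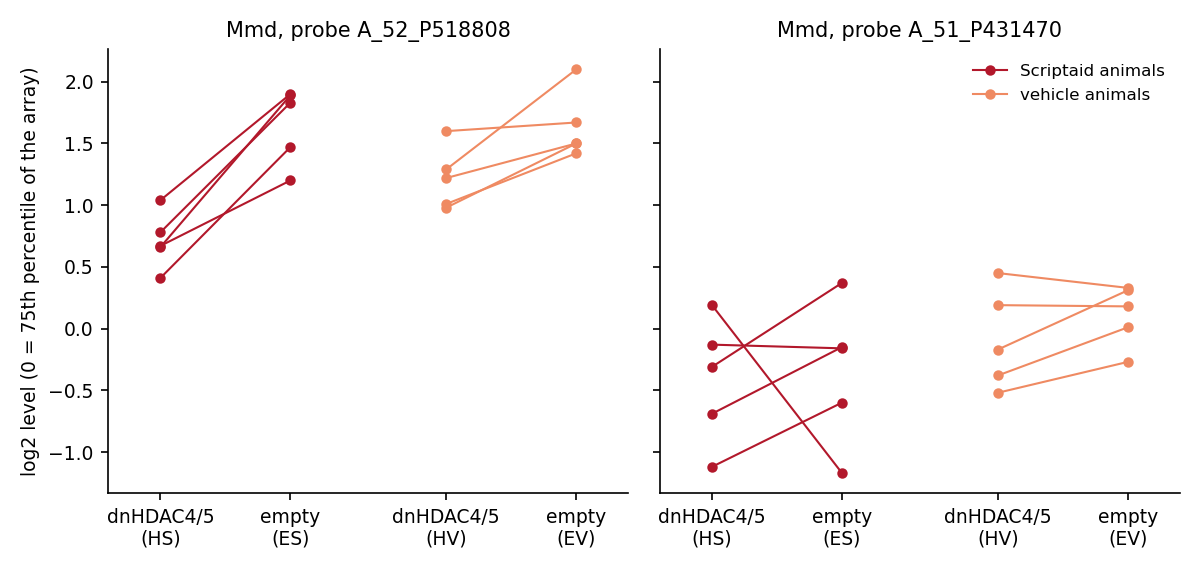
Level of Mmd (log2, 0 being the 75th percentile of the array) by each of its probes; a line joins the legs of 1 animal, with the dnHDAC4/5 leg left of the empty-vector leg. With A_52_P518808 every line climbs toward the empty-vector leg, in 10 of 10 animals, and with A_51_P431470 this holds for 6 of 10.

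The values of Mmd in Scriptaid animals against vehicle animals are likewise a description. With A_52_P518808 the group means were 0.72 ± 0.23 in HS, 1.22 ± 0.25 in HV, 1.66 ± 0.31 in ES and 1.64 ± 0.27 in EV (SD, n = 5 each). HS and HV overlapped in a narrow range, HV with both empty-vector groups, and ES with EV throughout. ES minus EV was 0.02 ± 0.17 (SE), but it depended on the processing: it was 0.31 with normexp background, or 0.38 relative to the median gene, and -0.22 as the mean of both probes. HS minus HV was -0.50 ± 0.17, and -0.58 to -0.39 over the alternatives. The difference between the vector's effects with Scriptaid and with vehicle was -0.52 ± 0.24, and -0.70 to -0.20 over the alternatives. With A_51_P431470, Mmd differed by -0.45 ± 0.27 for ES minus EV and -0.33 ± 0.27 for HS minus HV.

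Markers of other cell types also differed by value between the legs. In HS against ES, 13 of 13 macrophage markers tested were higher by value (median 0.38, against 0.04 over all genes). In HV against EV, 11 of 13 were higher (median 0.22), and 0 passed the test in either comparison. The summed linear level of macrophage markers was taken over the 11 with a value on every array. It ranged from 6.17 to 21.5 in HS, 7.85 to 15.6 in HV, 6.41 to 14.7 in ES and 5.89 to 14.8 in EV legs, so the groups overlapped. Of the 14 macrophage markers on the array, 12 were above background on all 20 arrays. Adipocyte markers were higher in HS than in ES for 8 of 8 (median 1.94) and lower in HV than in EV for 6 of 8 (median -0.29), and 0 passed. Their summed level ranged from 111 to 269 in HS, 95.3 to 144 in HV, 72.8 to 193 in ES and 86.8 to 166 in EV legs. Schwann cell markers had a median of -0.82 for HV minus EV and 0.12 for HS minus ES over 7 tested, and 0 passed. Their sums ran from 3.08 to 9.92 in HS, 2.16 to 6.14 in HV, 2.56 to 6.62 in ES and 3.10 to 16.6 in EV legs. Of 5 endothelial and 3 red blood cell markers tested, 0 passed. The part of these cells in the level of Mmd was not tested.

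Of the other members, 0 passed the test in any comparison. In the vector comparisons 0 of 6 were called, where limma called 0 of 15240 genes for HV against EV (0%, with 716 or 4.7% at an unadjusted p under 0.05), 61 for HS against ES (0.4%) and 91 for the average (0.597%). With the animal as a block, 104 genes were called for HS against ES. In the Scriptaid comparisons 0 of 6 were called, against 0% of genes for ES against EV (570 or 3.74% at an unadjusted p under 0.05) and 0.538% for HS against HV. The interaction gave 0 calls over all genes and 498 at an unadjusted p under 0.05 (3.27%). With so few genes called in any comparison, a count of 0 among 6 is near the background. The groups of every kept probe of these 6 genes overlapped in all pairs compared.

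Among the adiponectin receptors, Adipor1 was read by 3 probes. The probe that stands for it, A_51_P485240, gave 4.34, 3.92, 4.05, 4.49 and 4.56 in HS legs, 4.03, 3.85, 3.84, 4.48 and 4.02 in HV legs, 4.33, 4.33, 4.10, 4.10 and 4.19 in ES legs and 3.55, 4.15, 3.91, 4.44 and 4.16 in EV legs. All groups overlapped, with EV 1 the lowest and HS 5 the highest leg. Adipor1 differed by 0.06 ± 0.17 (SE) for HS minus ES (limma, adjusted p = 0.957) and by 0.00 ± 0.17 for HV minus EV (adjusted p = 1.0). A second probe, A_52_P645357, was higher in the dnHDAC4/5 leg in 8 of 10 animals, and its averaged difference was 0.23 ± 0.10 (adjusted p = 0.41 over all kept probes). The third, A_52_P522097, spans 1046 bases of chromosome 1 by the file's positions with only 60 bases of its own, and so reads across a splice junction. It gave Adipor1 an averaged difference of 0.03 ± 0.11 (adjusted p = 0.951), with 1 HS spot left out.

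Adipor2 likewise has a probe across a junction, A_52_P516656, spread over 2350 bases of chromosome 6. The junction probes of both receptors are printed because they read spliced transcript, 5′ to 3′ and whole.
A_52_P522097 (Adipor1): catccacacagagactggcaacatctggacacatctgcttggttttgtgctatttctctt
A_52_P516656 (Adipor2): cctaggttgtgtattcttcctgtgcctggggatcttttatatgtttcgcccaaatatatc

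By A_52_P516656, Adipor2 was at 2.37, 1.71, 1.99, 2.21 and 1.76 in HS legs, 2.17, 1.91, 1.93, 2.14 and 2.13 in HV legs, 2.21, 1.92, 2.16, 2.11 and 2.09 in ES legs and 1.75, 1.80, 1.88, 1.99 and 1.99 in EV legs. The HS legs were the most spread, and the EV legs held the lowest mean, 1.88 ± 0.11 (SD). Adipor2 differed by -0.09 ± 0.12 (SE) for HS minus ES (limma, adjusted p = 0.884) and by 0.17 ± 0.12 for HV minus EV (adjusted p = 1.0), the HV leg being the higher one in 5 of 5 animals. ES minus EV was 0.21 ± 0.12 (adjusted p = 1.0). A brighter probe, A_52_P185044, was dropped because 7 of its spots were flagged as non-uniform or as population outliers, 3 of them in ES. With those spots kept, as a description, it averaged 6.23 ± 0.16 in HS, 6.0 ± 0.17 in HV, 5.91 ± 0.11 in ES and 5.74 ± 0.22 in EV legs (SD, n = 5 each). A further probe, A_51_P257151, was above background on 2 of 20 arrays.

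Paqr7 and Paqr9, the membrane progestin receptors tested, read lower by value in the dnHDAC4/5 leg of all 5 vehicle animals. In Scriptaid animals this held for 2 of 5 with each gene. The share of all genes with such counts of animals was not computed, here or for the other members apart from Mmd. Paqr9 gave -2.15, -2.41, -1.08, -2.48 and -2.37 in HV legs, against -1.27, -2.13, -0.77, -1.85 and -1.85 in EV legs. HV 3 stood far above the other HV legs, and its EV partner was the highest of its group too. The difference was -0.52 ± 0.27 (SE), which did not pass (limma, adjusted p = 1.0, and 0.372 with the animal as a block). It was -0.78 without HV 3 and -0.32 without EV 3. In Scriptaid animals Paqr9 gave -1.37, -1.13, -1.43, -1.47 and -1.96 in HS legs, against -1.45, -1.58, -1.45, -1.17 and -1.65 in ES legs. These groups overlapped throughout, and HS minus ES was -0.01 ± 0.27 (adjusted p = 0.996). HS minus HV was 0.63 ± 0.27 (adjusted p = 0.423), or 0.40 with normexp background, and HV 3 stood above all HS legs while the other HV legs stood below all of them.

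Paqr7 gave 0.78, 0.62, 0.29, 0.29 and 0.83 in HV legs, against 1.03, 0.70, 0.75, 0.73 and 1.30 in EV legs. The groups overlapped, with HV 1 and HV 5 above 3 of the EV legs. HV minus EV was -0.34 ± 0.15 (SE; limma, adjusted p = 1.0, and 0.475 with the animal as a block). In Scriptaid animals it gave 0.64, 0.22, 0.68, 0.30 and 0.90 in HS legs, against 0.52, 0.65, 0.66, 0.71 and 0.75 in ES legs. The lower leg was the dnHDAC4/5 one in 2 of 5 of these animals, and HS minus ES was -0.11 ± 0.15 (adjusted p = 0.888). The vector's effect on Paqr7 differed between injections by 0.23 ± 0.22 and that on Paqr9 by 0.51 ± 0.37 (adjusted p = 1.0 each). The remaining progestin receptors were not tested: Paqr5 was above background on 0 arrays, Paqr8 on 2, and the probe of Paqr6 lay in the border zone 2 columns from the edge.

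Paqr3, which holds Raf kinase at the Golgi, was dim and its probes are uncertain as to the gene. The probe assigned to its RefSeq transcript, A_51_P156849, was above background on 0 arrays. The probe that stands for Paqr3, A_52_P341016, is assigned to a cDNA clone whose description in the file names another gene, Bmp2-inducible kinase. It gave -3.08, -2.34, -2.74, -3.30 and -2.69 in HS legs, -2.74, -2.55, -2.60, -2.35 and -2.97 in HV legs, -3.63, -2.96, -3.0, -2.92 and -2.78 in ES legs and -2.97, -3.0, -2.86, -2.97 and -3.0 in EV legs. The dnHDAC4/5 leg was higher in 9 of 10 animals, while the groups overlapped. The averaged difference was 0.27 ± 0.12 (SE; limma, adjusted p = 0.402, and 0.206 with the animal as a block), and it changed sign to -0.11 with normexp background. Another Paqr3 probe, A_51_P418749, above background on 10 arrays, gave 0.43 ± 0.30 (adjusted p = 0.665 over all kept probes).

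Paqr4 gave 0.71, 0.48, 0.83, 0.75 and 0.58 in HS legs, 0.70, 0.52, -0.04, -0.37 and 0.82 in HV legs, 0.61, 0.39, 0.96, 0.93 and 0.77 in ES legs and 0.77, -0.24, 0.87, 0.48 and 0.91 in EV legs. The vehicle groups were the more spread, HV 3, HV 4 and EV 2 being low. Its differences were -0.06 ± 0.23 (SE) for HS minus ES (limma, adjusted p = 0.967) and -0.23 ± 0.23 for HV minus EV (adjusted p = 1.0). Mmd2, the closest relative of Mmd, was above background on 1 of 20 arrays, an ES one at -4.45, and has only an upper bound elsewhere.

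**Figure D2:**
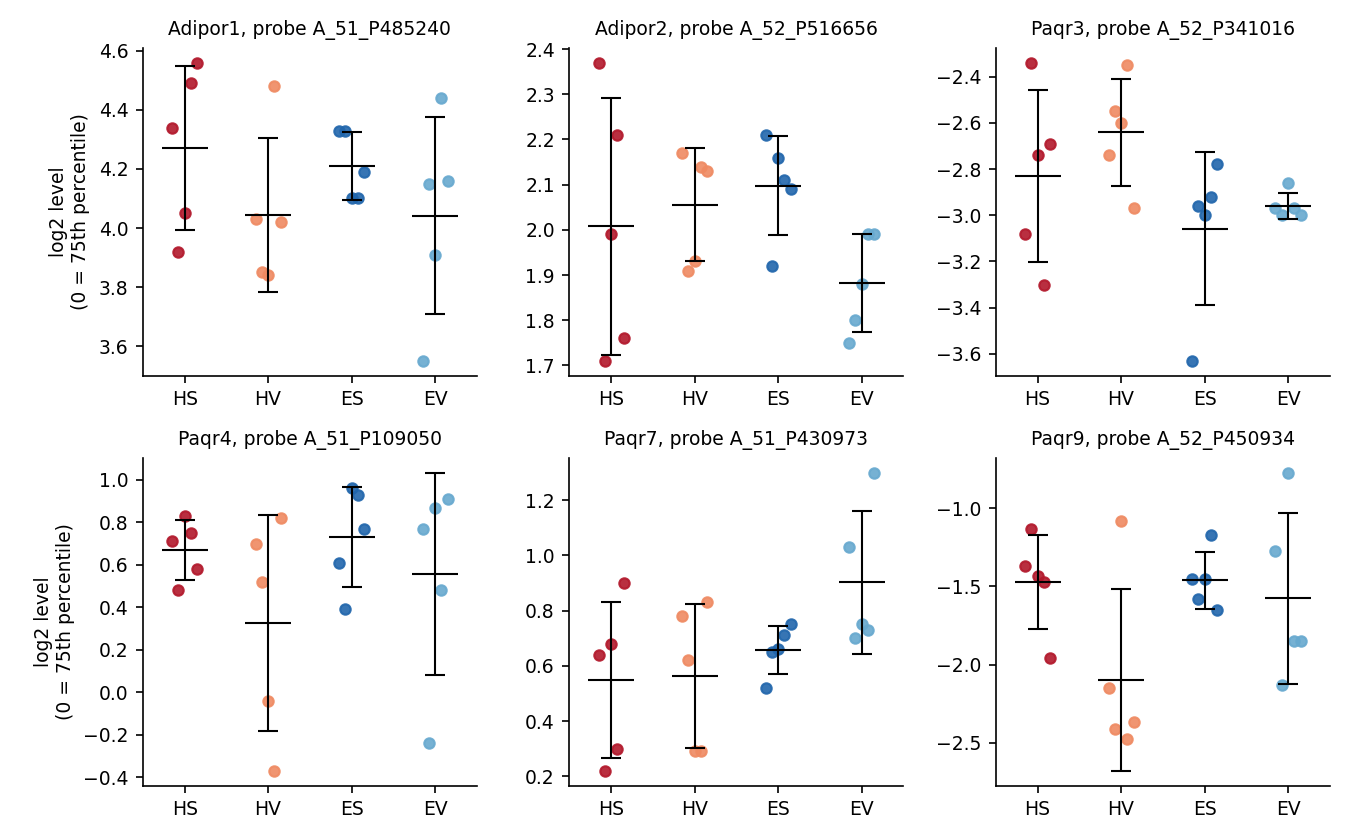
Levels of 6 family members by group (log2, 0 being the 75th percentile of the array; each panel has its own scale); points are arrays, lines and bars the mean ± SD of 5. The groups overlap in every panel, and HV 3 stands apart among the HV legs for Paqr9 at -1.08.

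**Figure D3:**
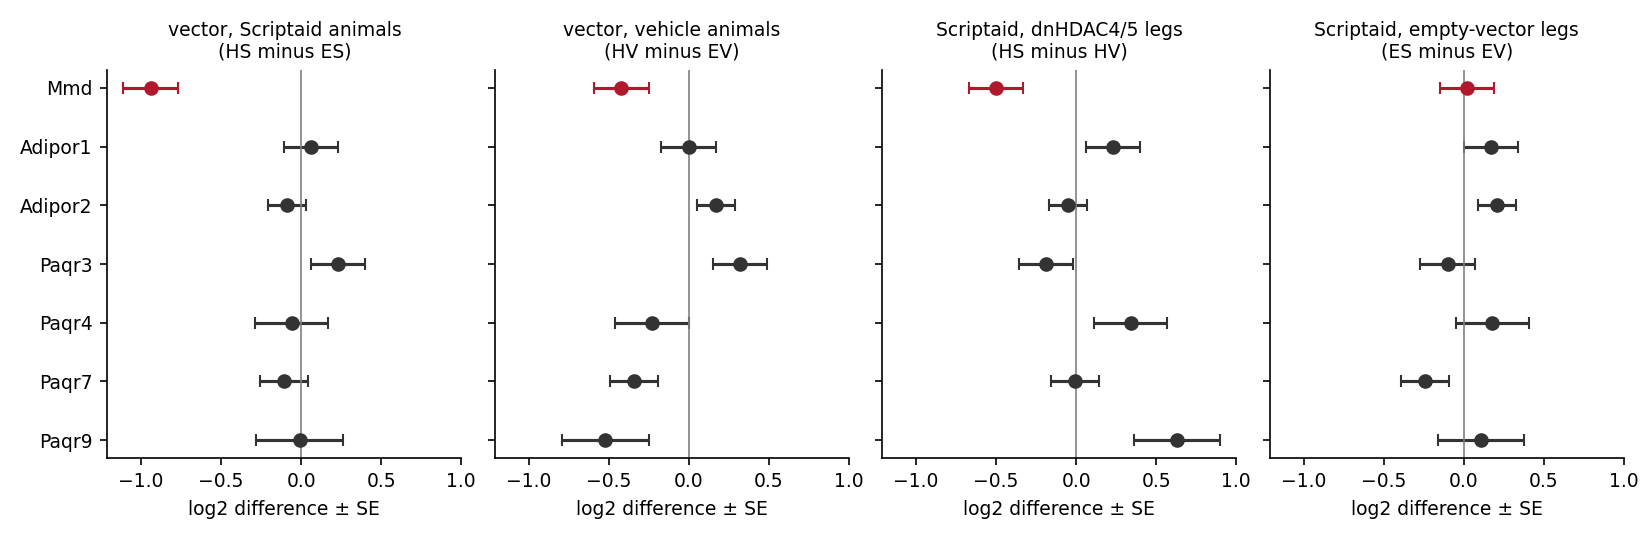
Fitted log2 differences ± SE of 7 family members in 4 comparisons, with Mmd (probe A_52_P518808) in red. Mmd lies at -0.94 and -0.42 in the vector comparisons, and at -0.50 and 0.02 in the Scriptaid comparisons, with no test; the other members lie between -0.52 and 0.63, and 0 of them passed the test.

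The pathways around the family were described by 6 lists, which hold 57 tested genes. In all 6 comparisons 0 of their genes were called. Of all genes, limma called 0% to 0.597% by comparison, so a count of 0 among 57 is near the background. Counts at an unadjusted p under 0.05 are given with the share of all genes that reached it, which was 11.5% for the averaged vector comparison and 9.71% for HS against HV.

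Of the ligand list (adiponectin, its binding cadherin and related C1q/TNF proteins), 10 genes were tested, 7 higher and 3 lower by value in the averaged vector comparison (median 0.06, against 0.02 over all genes), and 1 had an unadjusted p under 0.05. That gene was C1qtnf3, a secreted relative of adiponectin, at 1.23 ± 0.44 (SE; limma, adjusted p = 0.231). Adipoq itself, which fat cells make, gave -2.02, 3.05, -0.04, -1.97 and 2.80 in HS legs, against -1.77, 2.19, -4.04, -0.97 and -3.28 in ES legs. The legs of both groups spread over several log2 units and overlapped. In empty-vector legs the ligand list had a median of -0.38 for ES minus EV, and C1qtnf2 had the smallest p, at -0.88 ± 0.32 (adjusted p = 1.0).

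Of 16 signalling genes (adaptors, AMP-activated protein kinase and coactivators), 11 were higher and 5 lower by value with the vector on average (median 0.06), and 4 had an unadjusted p under 0.05. Prkag2, a regulatory subunit of AMP-activated protein kinase, differed by 0.62 ± 0.22 (SE; limma, adjusted p = 0.231), and Cab39, a scaffold of its upstream kinase, by 0.26 ± 0.11 (adjusted p = 0.324). For HS against HV, 10 of the 16 were higher by value (median 0.09, against 0.05 over all genes), with 3 at an unadjusted p under 0.05.

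For HS against HV, Ppara and Ppargc1a had the smallest p in this list. Ppara, the fatty acid receptor downstream of Adipor2, gave 3.35, 1.98, 2.50, 2.03 and 2.45 in HS legs, against 1.96, 1.48, 1.83, 1.19 and 1.76 in HV legs. Every HS leg stood above every HV leg, as in 1.46% of all genes. Ppara gave 2.81, 2.00, 2.68, 2.32 and 2.27 in ES legs, against 1.83, 1.80, 1.93, 1.31 and 1.77 in EV legs, again without overlap, as in 0.715% of genes. HS minus HV was 0.82 ± 0.23 (SE; limma, adjusted p = 0.151, and 0.0158 with the slide as a block, where the range over the alternatives was 0.0158 to 0.397). ES minus EV was 0.69 ± 0.23 (adjusted p = 1.0).

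Ppargc1a, a coactivator of mitochondrial genes, gave 3.29, 3.00, 3.32, 3.85 and 3.12 in HS legs, against 2.93, 2.69, 2.55, 2.94 and 2.66 in HV legs. The lowest HS leg stood above the highest HV leg, as in 1.46% of all genes. HS minus HV was 0.56 ± 0.16 (SE; limma, adjusted p = 0.144), and ES minus EV was 0.35 ± 0.16 (adjusted p = 1.0). The Ppara and Ppargc1a calls appeared without HS 2 alone among the arrays left out in turn.

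The 11 metabolic targets had medians of 0.07 with the vector on average and 0.07 for HS minus HV. Of 6 ceramide-hydrolysing or sphingosine-modifying enzymes, Asah1, the lysosomal ceramidase, had the lowest value at -1.92 ± 0.79 (SE) for HS minus ES (limma, adjusted p = 0.361). Asah1 was at -5.79, 0.15, -2.90, 0.04 and 0.16 in HS legs, against 0.65, 0.16, 0.24, 0.10 and 0.12 in ES legs, so HS 1 and HS 3 stood far below all other legs. Acer2, a Golgi ceramidase, differed by 0.33 ± 0.23 for HS minus HV (adjusted p = 0.703). Of 3 genes tested in the progestin and steroid list, Nenf, a secreted heme-binding protein, differed by 0.15 ± 0.07 with the vector on average (adjusted p = 0.392).

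In the Raf list, 3 of 11 genes were higher and 8 lower by value with the vector on average (median -0.03). Spry2, an inhibitor of the Ras and Raf cascade, gave 1.24, 0.77, 0.93, 1.11 and 0.86 in HS legs, against 0.44, 0.43, 0.29, 0.50 and 0.73 in ES legs. The groups did not overlap, as in 2.14% of all genes higher in HS. Spry2 differed by 0.50 ± 0.12 (SE) for HS minus ES (limma, adjusted p = 0.0875) and by 0.37 ± 0.09 averaged over both injections (adjusted p = 0.0603), just short of a call. Spry1, another inhibitor of the same cascade, differed by -0.16 ± 0.11 on average (adjusted p = 0.666).

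**Figure D4:**
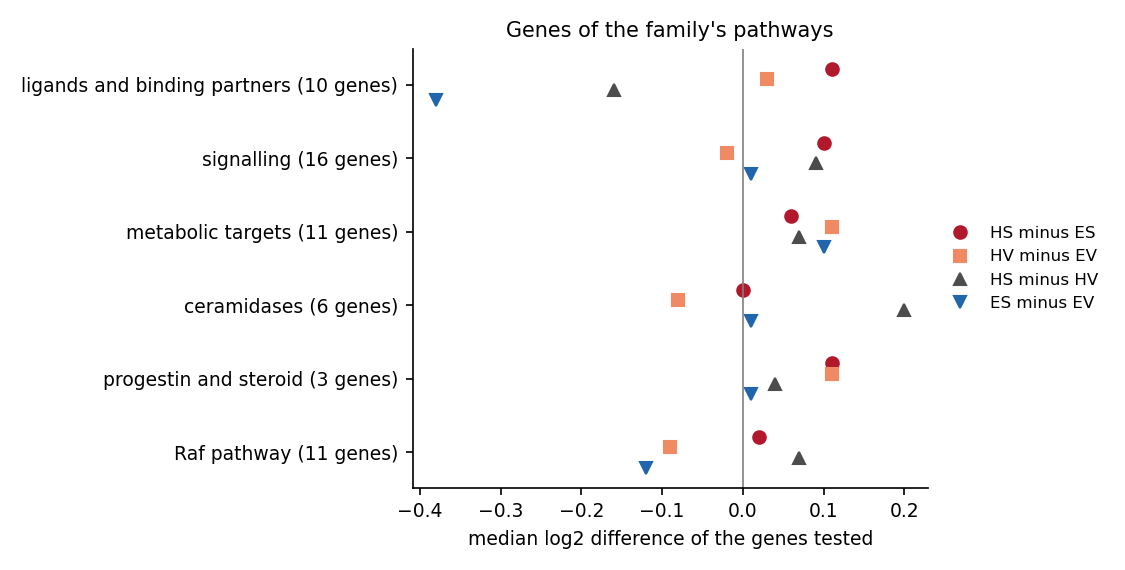
Median log2 difference of the tested genes in 6 pathway lists, for the vector (HS minus ES, HV minus EV) and Scriptaid (HS minus HV, ES minus EV). The medians lie between -0.38 and 0.20, and 0 genes of these lists were called in any of the comparisons. Of all genes, 0% to 0.538% were called in these comparisons.

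The genes whose levels followed Mmd (A_52_P518808) most closely over the 20 arrays were Polk, a DNA polymerase (Pearson r = 0.88), Tada2a, a subunit of histone acetyltransferase complexes (0.87), Sorbs2, a cytoskeletal adaptor (0.85), Tiam1, a Rac exchange factor (0.82), and Sub1, a transcription coactivator (0.81). Those running most against it were Dedd2, Sec61a1, Blnk and Cgnl1 (-0.84 each) and Casp9 (-0.83). Among 13285 genes compared, the middle 95% of r lay between -0.57 and 0.56. The arrays share the group differences, and with the group means removed r was 0.69 for Polk, 0.71 for Tada2a, 0.70 for Sorbs2, 0.62 for Tiam1 and 0.56 for Sub1. It was then -0.76 for Cgnl1, -0.72 for Sec61a1, -0.59 for Dedd2 and -0.53 for both Blnk and Casp9. These genes were picked by r over the same arrays, so strong values follow in part from that choice. No range over all genes is given for r with the group means removed. Polk averaged -0.70 ± 0.22 in HS and -0.47 ± 0.13 in HV legs, against -0.18 ± 0.12 in ES and -0.22 ± 0.25 in EV legs (SD). Sorbs2 averaged -0.54 ± 0.38 in HS and -0.33 ± 0.49 in HV legs, against 0.53 ± 0.44 in ES and 0.38 ± 0.51 in EV legs. The probes of Dedd2, Blnk and Casp9 lie within 10 columns of the border. Of the family, Paqr7 correlated most with Mmd (r = 0.41), and the other 5 lay between -0.28 and 0.07. With the group means removed that order changed, with Adipor1 at 0.49 and Paqr7 at 0.17.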

How the data were processed

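Messenger RNA of 20 EDL muscles was hybridised after labelling 100 ng of RNA with Cy3, per the labels' protocols. Per the file headers, arrays of design Agilent-014868 were read with Agilent Feature Extraction 9.5.1.1 (protocol GE1-v5_95_Feb07), which subtracted background and wrote a processed intensity per spot. These intensity values, as deposited by the authors, are the main data. The deposited series matrix holds a ratio for 23678 probes, which on every array was the processed intensity over 1 constant within 2%, and it served as an alternative.

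Of 45018 spots per array, 43379 are not controls. Each intensity was put on the log2 scale minus the array's 75th percentile. Flagged spots (non-uniform or population outliers) and a border zone of 6 rows and 2 columns were left out, and spots of a probe were averaged. A probe was kept if it was well above background on at least 5 arrays with at least 3 arrays left per group. Where a gene had several kept probes, that of highest mean was used. A model of 4 group means was fitted to 15240 genes with limma 3.58.1 (R 4.3.3), with two-sided tests and Benjamini-Hochberg adjustment. The fit was tested on simulated data, where it recovered most, not all, of the changes put in. The simulated arrays were independent, without paired legs or a border effect, so this does not show how well the fit performs on the real arrays. Python 3.11.15 handled the tables.

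Groups follow the descriptions and treatment entries, since the titles of ES say vehicle. Animal identifiers pair the legs; deviations from the group means correlated at 0.02 to 0.42 between HV and EV and 0.22 to 0.40 between HS and ES legs. Members and lists were chosen with earlier results of these data known. Named were all probes of the family, the list genes that passed or else those of smallest p, and the 5 genes most like and most unlike Mmd, passing over clone names; 1 gene that this rule names is not reported here. The number of arrays limits the precision. The main fit does not pair the legs of an animal, so its SE and p-values mix the spread between animals with that between legs. Only the fit with the animal as a block uses the pairing. Alternatives covered spots, background, scaling, filter, probe choice, blocks, the matrix and each array left out.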

Additional observations from a re-analysis of the deposited data

Results flagged for a closer look

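In 57 groups of member values, 5 held an array that stood apart by Dixon's 95% criterion, and chance flags about 1 in 20. ES 4 read Mmd2 (A_51_P257885) at -4.45, above background, where the other ES arrays lay between -6.81 and -6.31. For Paqr3 by probe A_51_P418749, HV 5 read -4.25, not above background, against -3.39 to -3.28 on the other HV arrays used. By probe A_52_P341016 of Paqr3, ES 1 read -3.63 against -3.0 to -2.78, and EV 3 read -2.86 against -3.0 to -2.97, a narrow range. For Paqr9 (A_52_P450934), HV 3 read -1.08 against -2.48 to -2.15 on the other HV arrays. Without HV 3, HV minus EV for Paqr9 was -0.78 and HS minus HV was 0.88, and neither passed limma's test (adjusted p = 0.445 and 0.104). Without its partner EV 3, HV minus EV was -0.32 (adjusted p = 0.993).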

How the results depend on the processing

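Across 30 alternatives, 0 of the other 6 members were called in the vector comparisons and the interaction, nor in the Scriptaid comparisons over 29, since the animal block gives no value there. Mmd kept its sign in all vector comparisons, read by A_52_P518808 except where its probes were averaged. It was chosen on these same legs, so nothing is read from this. Its HV minus EV was -0.09 with normexp background and -0.51 to -0.30 with an array left out, and its HS minus ES was -0.50 as the mean of its probes and -1.06 to -0.87 with an array left out. With normexp the median gene of the interaction stood at 0.13, against 0.03 as reported, and the averaged vector difference of Paqr3 turned to -0.11. With the animal as a replicate block Mmd differed by -0.42 ± 0.13 (HV minus EV) and -0.94 ± 0.13 (HS minus ES), and the block changed no call of a member. Of 7368 values of named genes under alternatives, 382 uncalled ones changed sign.

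The counts of called genes (0 for HV against EV, 61 for HS against ES, 91 for the average, 0 for ES against EV, 82 for HS against HV, 0 for the interaction) moved more, and the cause was not tested. With all spots kept they were 195 (HS against ES), 172 (average), 202 (HS against HV) and 28 (interaction). Normexp gave 26 (average), 1 (ES against EV), 36 (HS against HV) and 4 (interaction), and quantile normalization gave 168 (average). Without the filter on dim probes they were 1 (HV against EV), 31 (HS against ES), 26 (average) and 1 (ES against EV). The mean of all kept probes gave 14 (HS against ES) and 43 (HS against HV), and the matrix gave 35 (HS against ES). With the animal block HS against ES had 104 and the average 125. With the slide as a replicate block the counts were 215 (HS against ES), 309 (average) and 221 (HS against HV). Both wider border zones were chosen after seeing the data. A zone of 12 rows and 3 columns gave 51, 85 and 62 for HS against ES, the average and HS against HV. One of 12 rows and 10 columns, tried next because called genes lay in the right-hand columns, gave 0, 29 and 2.

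Leaving out an array gave 0 to 3 calls for HV against EV (3 without HV 5), 11 to 203 for HS against ES, 12 to 261 for the average, 0 to 1 for ES against EV (1 without EV 3), 38 to 260 for HS against HV and 0 to 7 for the interaction (1 without EV 3, 7 without HS 2). For HS against ES the count moved over 1.5 times without HV 1, any ES array, or any HS array but HS 3, and was highest without HS 2. For the average it did so without every array but EV 3, EV 5, HV 3 and ES 3. For HS against HV it did so without HV 1, HV 2, HV 5 and every HS array but HS 4. Spry2 was called for the average with all spots (0.37), quantile normalization (0.36), the slide block (0.37) and without EV 3 (0.41), HV 5 (0.39) or HS 2 (0.39), and for HS against ES without HS 2 (0.56). Ppara was called for HS against HV with the slide block (0.82) and without HS 2 (0.94), and Ppargc1a without HS 2 (0.64).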
